A study of Homo sapiens with 8 samples.

Results

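The genes examined here encode the subunits of the proteasome, the proteins that activate or inhibit it and the chaperones that assemble it. They were taken by name, as every gene of the count table whose symbol starts with PSMA, PSMB, PSMC, PSMD, PSME, PSMF or PSMG followed by a digit and holds no hyphen. This gave 45 of the 10105 genes in the table, all of which were tested. By role, 14 encode the constitutive 20S core particle, 2 are immunoproteasome subunits (PSMB9 and PSMB10), 17 encode the 19S regulatory particle, 6 are assembly chaperones, 4 are alternative activators (PSME1 to PSME4) and 1 is the inhibitor PSMF1. The last one, PSMC3IP, carries the name because its product binds a 19S ATPase, but it is a meiotic recombination factor and no proteasome part, so 44 of the 45 genes concern the proteasome. PSMA8, PSMB8, PSMB11 and PSMD5 were not analysed here.

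The study asked how loss of XRN1, the cytoplasmic exonuclease that degrades decapped mRNA from its 5′ end, changes mRNA levels and translation. HEK293T cells, a line of human embryonic kidney origin that carries the SV40 large T antigen, were compared with an XRN1-null line made from them by CRISPR/Cas9 cutting in an exon of XRN1. Both were plated on 15 cm dishes and harvested 24 h later, with no treatment named in the labels, and each was measured by RNA-Seq, from extracted total RNA of which the study describes poly(A)-tailed RNA as the part that was sequenced, and by Ribo-Seq, which sequences ribosome-protected fragments (RPFs, or footprints), in 2 biological replicates of either genotype, which gave 8 libraries. The XRN1-null cells are 1 edited line, so effects of XRN1 loss and of the history of that line cannot be told apart. In these bulk samples fewer expressing cells and less RNA per cell cannot be told apart either.

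The proteasome degrades proteins tagged with ubiquitin chains. Its 20S core is a barrel of stacked alpha and beta rings in which the alpha ring gates access and 3 of the beta subunits cut peptide bonds. The 19S particle caps the barrel, with a base whose ATPases unfold the substrate and a lid that removes ubiquitin. In mammalian cells most of these genes are expressed together at high levels, and cells exposed to interferon replace the catalytic beta subunits by immunoproteasome forms.

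RNA-Seq libraries held 33757487 to 38145433 counts and Ribo-Seq libraries 1921641 to 4399542. XRN1 itself had 1187 and 1084 RNA-Seq counts in WT against 10655 and 9834 in XRN1-null cells, while its footprint counts were 66 and 217 in WT against 91 and 59 in XRN1-null libraries of unequal depth. Relative to depth XRN1 mRNA was higher in the XRN1-null libraries by 3.01 on the log2 scale and its footprints were lower (log2 change -1.08 ± 0.20 SE, FDR = 0.006). Its TE fell (log2 change -4.09, FDR = 1.66e-06). A small edit in an exon need not remove the mRNA, so the RNA-Seq level is no check of the genotype. In these libraries the footprints were the readout that went with the name XRN1-null. The paper itself reports no detectable XRN1 protein on a western blot and a frameshift deletion by Sanger sequencing. It also reports a retained intron in the XRN1 transcripts, and reads their accumulation as decay intermediates that cannot be translated. The authors kept genes above an FPKM of 2, and computed from the deposited counts and widths 44 of the 45 members were above it in every library, PSMB9 being the exception. Of 8 markers of HEK293T cells 6 were in the table and of 5 markers of other cell types 0, where a gene that did not pass that cutoff is absent.

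In WT cells the 45 genes took 0.748 and 0.789% of all RNA-Seq counts and 1.12 and 1.18% of all Ribo-Seq counts. In XRN1-null cells the shares were 0.719 and 0.727% of RNA-Seq and 1.20 and 1.19% of Ribo-Seq counts. The 2 genotypes did not overlap in either assay, with a lower mRNA share and a slightly higher footprint share in XRN1-null cells, where the nearest Ribo-Seq libraries differed only in the third digit. With 2 libraries a group the exact permutation test cannot go below a two-sided p of 0.333, so no test of these shares was made.

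Levels of different genes are given as CPM, counts per 1 M of the scaled library total, divided by length in kb. Per kb of the width deposited with the counts, the 14 genes of the 20S core stood above those of the 19S particle in WT cells, with a median footprint level of 298 CPM per kb against 126 for the 17 genes of the 19S particle and a median mRNA level of 163 against 80.5. Footprints lie on coding sequence, so levels are also given per kb of coding length, an alternative added after the data were seen. Per coding kb the median footprint level was 512 against 206 and the median mRNA level 277 against 134. Within the core, footprint levels ran from 304 CPM per kb for PSMA6 to 861 for PSMB1, a 2.84-fold range.

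The subunits of the ring of 6 ATPases (PSMC1 to PSMC6) had similar footprint levels per coding kb. They ranged from 199 CPM per kb for PSMC2 to 289 for PSMC5 in WT, a 1.45-fold range, where their mRNA levels ranged 1.79-fold. The 8 lid genes among the members had footprint levels in WT from 170 CPM per kb for PSMD3 to 274 for PSMD8. This was a 1.62-fold range, and their mRNA levels had a 2.14-fold range. SHFM1 or SEM1, a lid gene outside the name rule, had no coding length here and is not in these ranges. Per kb of deposited width its WT footprints stood at 325 CPM per kb, above the highest of the 8 (187 for PSMD8). As the SD of the log2 level among genes, the spread was 0.20 for footprints and 0.31 for mRNA in the ATPase ring, and 0.20 for footprints and 0.36 for mRNA in the lid. In XRN1-null cells it was 0.22 for footprints and 0.40 for mRNA in the ATPase ring, but 0.35 for footprints and 0.34 for mRNA in the lid, which was then no narrower in footprints. The core was no narrower in footprints in WT (0.50 for footprints and 0.46 for mRNA). Per kb of deposited width the spread was wider, at 0.49 for footprints and 0.63 for mRNA in the ATPase ring and 0.57 and 0.74 in the lid. These are descriptions of 1 cell line, since genes are not replicates.

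**Figure D1:**
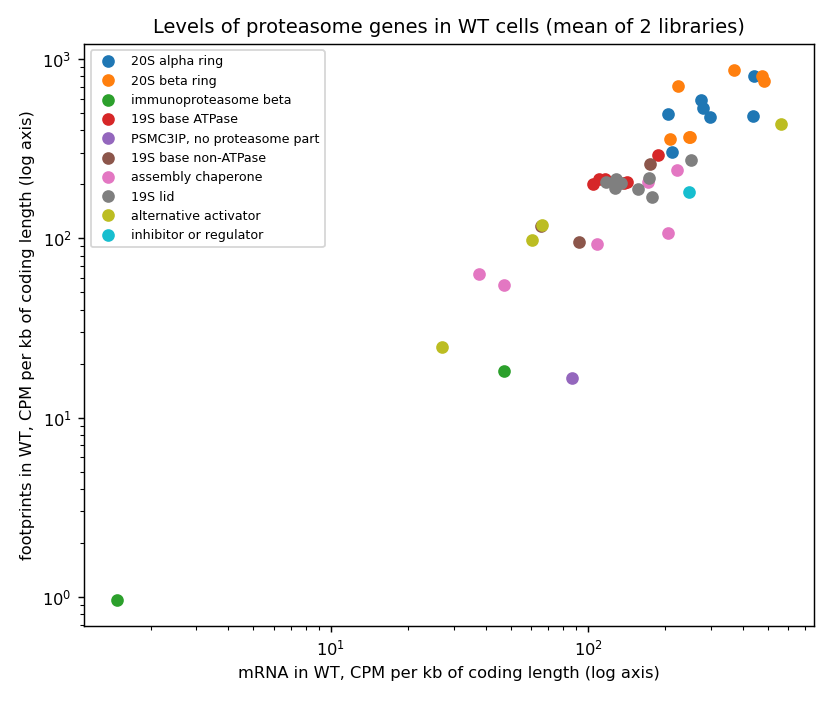
Footprint level (y axis) against mRNA level (x axis) in WT cells, both in CPM per kb of coding length on log axes, as means of 2 libraries and coloured by role. The ATPases and the 8 lid genes among the members lie in a narrow band of footprint levels between 170 and 289 CPM per kb, and PSMB9 lies alone at the lower left. The lid gene SHFM1 is not drawn.

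Footprint CPM over mRNA CPM, the translational efficiency (TE) ratio, was high for these genes. Its median in WT was 1.71 over the 20S genes, 1.496 over the 19S genes and 1.12 over the 6 assembly chaperones, against 0.820 over 10092 genes with mRNA counts. Of the 45 genes 39 were above that all-gene median. The highest ratio was that of PSMB3 (3.14), a non-catalytic beta subunit, and the lowest that of PSMC3IP (0.192).

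Between genotypes, mRNA of 12 of the 45 genes was lower and of 3 higher in XRN1-null cells at an FDR below 0.005 (quasi-likelihood test of edgeR, Benjamini-Hochberg correction across the table). Over all genes 23.2% were called lower and 22.9% higher, so 12 of 45 lies near the background, and 3 of 45 is below it. The genes that fell were PSMA2, PSMA3, PSMA7, PSMB1, PSMB2 and PSMB4 of the core, PSMB10 of the immunoproteasome, PSMC4 and PSMD7 of the 19S particle, and the chaperones PSMD10, PSMG1 and PSMG4. Those called higher were PSMC3IP, the activator PSME4 and PSMB9, whose difference is a description for the reason given with its values. The counts turned on single libraries, over the whole table as well as among the members. Without WT replicate 1 or 2 the test called 25 or 20 members lower and 4 or 10 higher, and without XRN1-null replicate 1 or 2 it called 3 or 2 lower and 1 higher each time. In the same fits 30.8% or 33.5% of all genes were called lower and 31.6% or 33.7% higher without a WT library, and 11.0% or 10.9% lower and 16.2% or 16.3% higher without an XRN1-null library. The 6 core genes, PSMB9, PSMC4, PSME4, PSMG1 and PSMG4 lost their call when either XRN1-null library was left out, PSMB9 also without WT replicate 2, and PSMD10 without XRN1-null replicate 2. For the 10 of these genes other than PSMB9 and PSMD10 the log2 changes moved by at most 0.06 when an XRN1-null library was left out, so the FDR was lost at about the same fold. PSMB10, PSMD7 and PSMC3IP were called in all 13 fits tried, these 4 included.

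**Figure D2:**
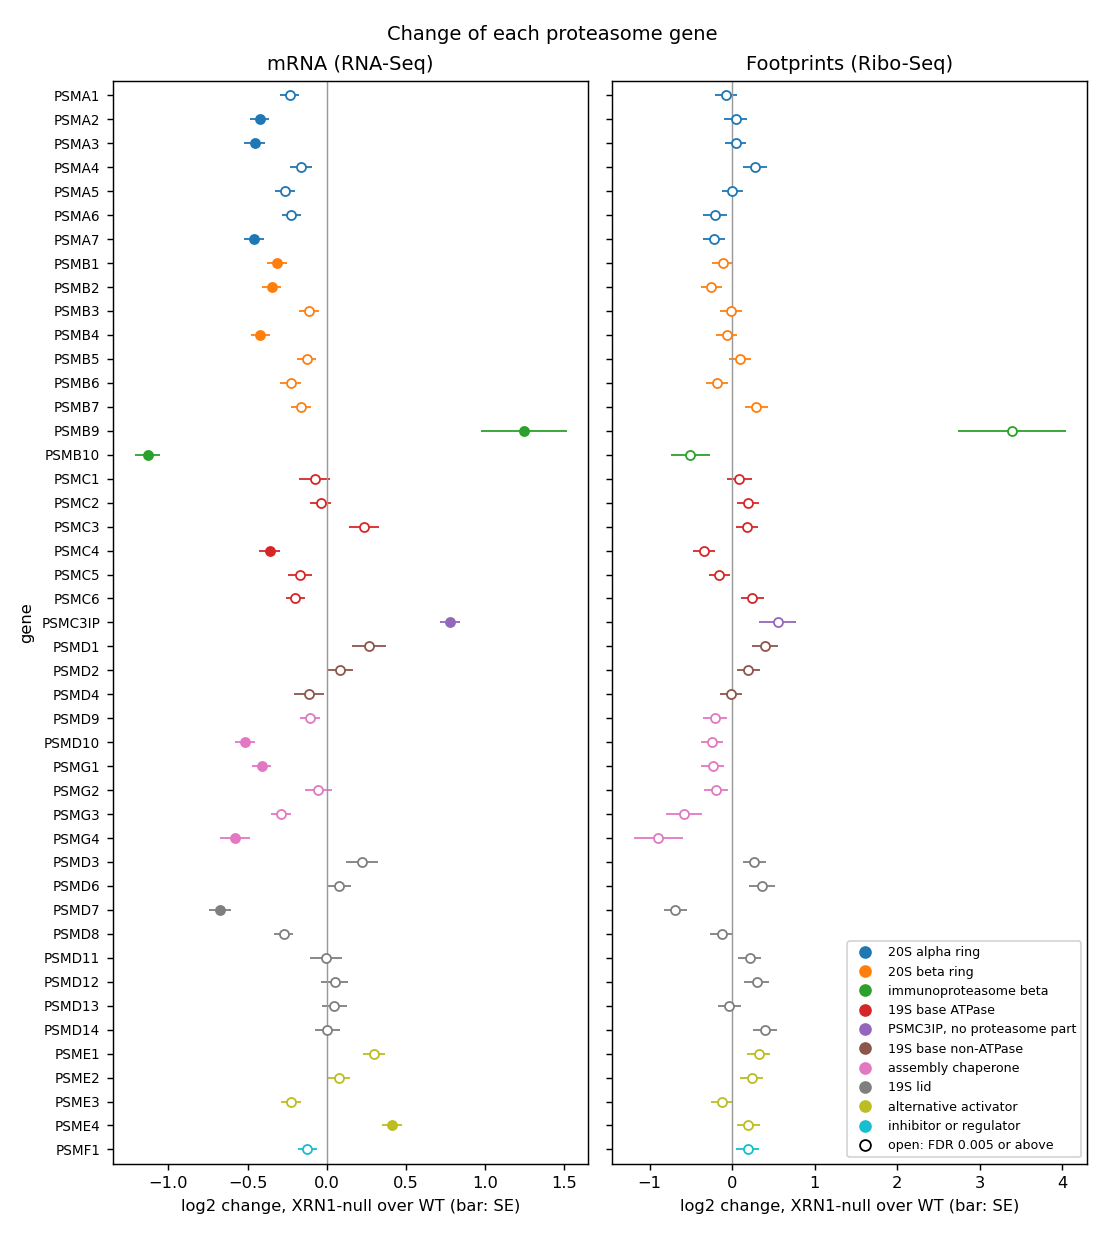
Log2 change of XRN1-null over WT (x axis, bars are the SE of the fit) for each of the 45 genes in mRNA (left) and footprints (right), with 2 libraries per genotype, coloured by role. Filled points have an FDR below 0.005, which 15 genes reached in mRNA and 0 in footprints (46.1% and 1.77% of all genes). All 14 core genes lie left of 0 in mRNA, as do 51.0% of all genes.

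All 14 genes of the 20S core had log2 changes below 0 in mRNA, where 51.0% of all genes were below 0. The test called 6 of them lower, where 23.2% of all genes were called lower. For each of the 14 both XRN1-null libraries had less mRNA than both WT libraries, where 43.7% of all genes were lower in this sense and 41% were higher. The 8 that did not pass had log2 changes between -0.26 and -0.11. The median change was -0.25, against -0.01 over all genes. PSMA7, an alpha ring subunit, had 324 and 330 CPM in WT against 234 and 241 in XRN1-null cells (log2 change -0.46 ± 0.06, FDR = 0.0004).

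PSMA3, another alpha subunit, had 154 and 158 CPM of mRNA in WT against 117 and 111 in XRN1-null cells, a fall of the same size (log2 change -0.46 ± 0.06). PSMB4, a non-catalytic beta subunit, had 371 and 379 CPM in WT against 278 and 282 in XRN1-null cells (log2 change -0.42 ± 0.06). In both genes the libraries of a genotype differed far less than the genotypes did.

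The 3 catalytic subunits were among the core genes that did not pass. PSMB5, the chymotrypsin-like subunit, had 195 and 197 CPM of mRNA in WT against 179 and 180 in XRN1-null cells (log2 change -0.13 ± 0.06, FDR = 0.096). PSMB6, the caspase-like subunit, had 143 and 155 CPM in WT against 128 and 126 in XRN1-null cells (log2 change -0.23 ± 0.07, FDR = 0.019). PSMB7, the trypsin-like subunit, had 199 and 210 CPM in WT against 183 in both XRN1-null libraries (log2 change -0.16 ± 0.06, FDR = 0.054). The groups did not overlap for any of them, and the differences were at most 0.23 on the log2 scale.

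Coding length moved with these results. The median coding length was 741 nt for the 20S genes and 1254 nt for the 19S genes. Over all genes with a coding length of up to 900 nt the median mRNA change was -0.33, and 46.5% of 2751 such genes were called lower. The 26 members of that length had a median of -0.23, and 10 of them (38.5%) were called lower, so among genes of their length the members did not stand lower. Across the 44 proteasome genes Spearman's rho of mRNA change and coding length was 0.46, and across 9799 genes 0.51, as a description over genes that share the same 4 libraries. In a fit that removed the smooth trend with coding length, added after the data were seen, 3 members were called lower (PSMB10, PSMC4 and PSMD7) in place of 12, below the 17.1% of all genes called lower in that fit. There the median change of the 20S core was -0.02 and 8 of its 14 genes were below 0.

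**Figure D3:**
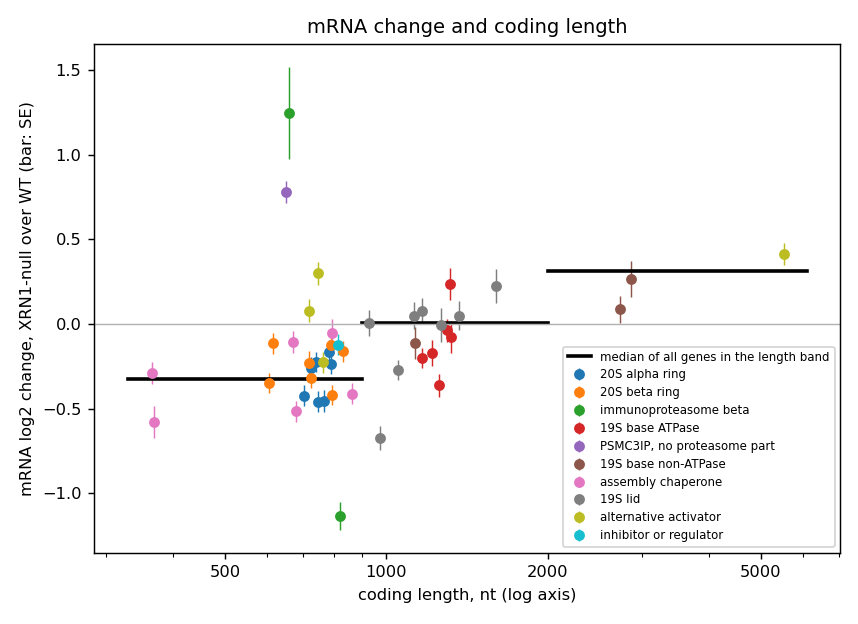
mRNA log2 change of XRN1-null over WT (y axis, bars are the SE of the fit) against coding length in nt (x axis, log scale) for the members, coloured by role. Black lines give the median change of all genes in 3 bands of length (-0.33 up to 900 nt, 0.004 above 900 and up to 2000 nt and 0.32 above 2000 nt), and most members lie near the line of their band, with PSMB9, PSMC3IP and PSMB10 farthest from it.

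The 19S particle did not move as a block in mRNA. Of its 17 genes 2 fell, PSMC4 and PSMD7, and the other 15 did not pass, where 23.2% of all genes were called lower and 22.9% higher. The median change was -0.01 over all 17. Of these 9 were below and 8 above 0, where 51.0% of all genes were below 0. PSMC4, 1 of the 6 ATPases, had 149 and 144 CPM in WT against 119 and 110 in XRN1-null cells (log2 change -0.36 ± 0.07, FDR = 0.002), a call that was lost with library totals in place of TMM. PSMD8, a lid subunit, was just outside the threshold with 261 and 265 CPM in WT against 217 and 219 in XRN1-null cells (log2 change -0.27, FDR = 0.0051). The WT replicates differed for these genes, since the median log2 difference of WT replicate 2 over replicate 1 was 0.20 for the 19S genes and 0.04 for the 20S genes. In XRN1-null cells the difference was 0.02 for the 19S genes.

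PSMD7 fell in mRNA and had the clearest fall in footprints of any member. Its product is a lid subunit that pairs with PSMD14, the deubiquitinase of the lid. PSMD7 mRNA was 161 and 176 CPM in WT against 106 and 105 in XRN1-null cells (log2 change -0.67 ± 0.07, FDR = 0.0001). Its footprints were 213 and 210 CPM in WT against 132 and 130 in XRN1-null cells (log2 change -0.69 ± 0.14, FDR = 0.008), a call at an FDR of 0.05 but not at 0.005. The log2 changes of both assays were of similar size, and the TE change did not pass (FDR = 0.97).

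PSMD14 showed no such fall. It had 118 and 131 CPM of mRNA in WT against 120 and 130 in XRN1-null cells, with overlapping groups. Its footprints were 172 and 206 CPM in WT against 246 and 256 in XRN1-null cells (log2 change 0.40 ± 0.14, FDR = 0.079). The difference between both partners was not tested. Per coding kb, PSMD7 in XRN1-null cells had the lowest footprint level of the 8 lid genes among the members, at 135 CPM per kb. The range of their levels was 2.04-fold. Without PSMD7 the other 7 lid genes spanned 1.47-fold in XRN1-null and 1.62-fold in WT cells.

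**Figure D4:**
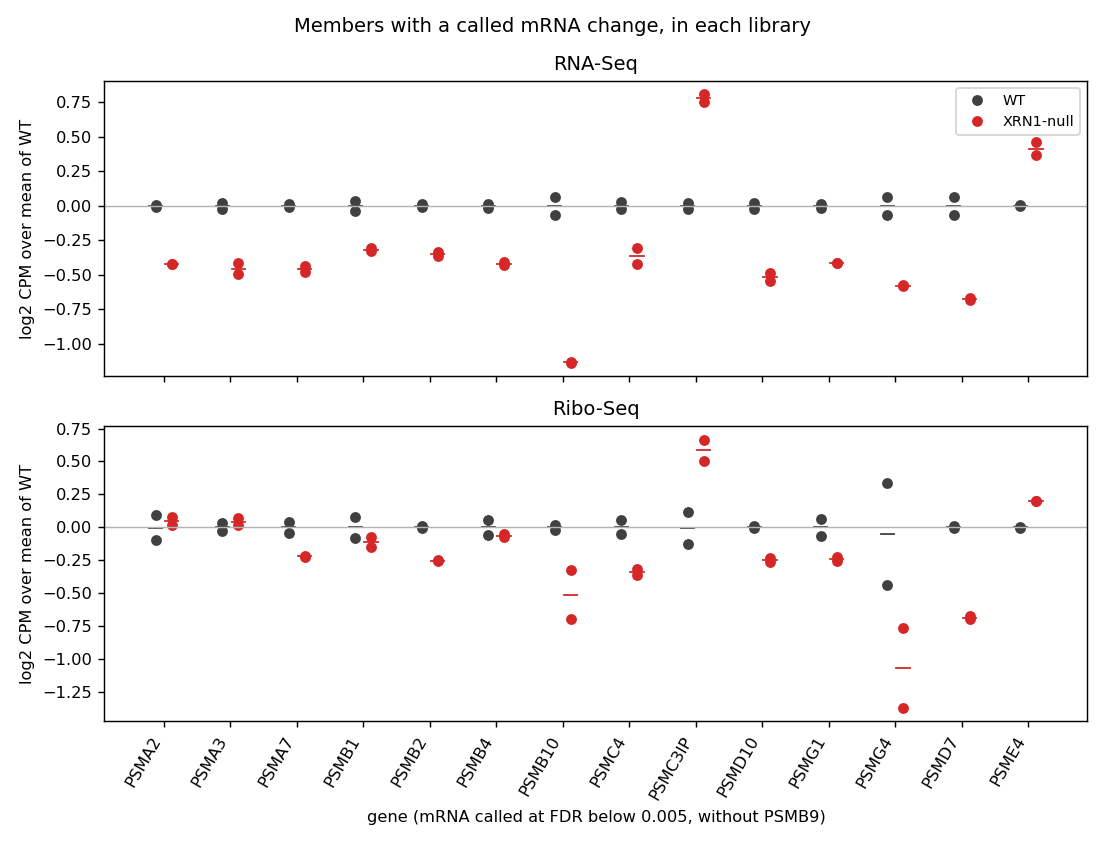
Log2 of CPM over the mean CPM of WT (y axis) in each library for the 14 genes other than PSMB9 whose mRNA was called, in RNA-Seq (top) and Ribo-Seq (bottom). Points are libraries and short lines their means, with 2 libraries per genotype. In RNA-Seq the genotypes are apart for every gene shown, and in Ribo-Seq they overlap for PSMA2, PSMA3, PSMB1 and PSMB4.

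PSMB10 replaces the trypsin-like PSMB7 in the immunoproteasome, and its mRNA fell more than that of any other member. It had 40.5 and 36.8 CPM in WT against 17.7 and 17.6 in XRN1-null cells, from 1433 and 1209 against 668 and 685 counts (log2 change -1.13 ± 0.08). Its footprints were few, at 29 and 64 counts in WT against 37 and 38 in XRN1-null cells. Scaled to depth these were 15.1 and 14.7 CPM in WT against 9.19 and 11.9 in XRN1-null cells (log2 change -0.51 ± 0.24, FDR = 0.15), a difference that did not pass.

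PSMB9, which replaces the caspase-like PSMB6, had very few counts in WT cells. It had 43 and 24 RNA-Seq counts in WT against 85 and 94 in XRN1-null cells, or 1.21 and 0.731 CPM against 2.25 and 2.41. The mRNA ratio of summed counts scaled to depth was 2.38 (95% counting interval 1.78 to 3.19). Its footprint counts were 2 and 1 in WT against 21 and 18 in XRN1-null cells, a ratio of 11.3 with a 95% counting interval of 3.59 to 57.0. In RNA-Seq its FPKM was 1.15 and 0.678 in WT against 2.18 and 2.35 in XRN1-null cells, on either side of the cutoff of 2. A gene that is in the table only through the libraries where it is high had to differ, so these values are a description with no test, and the ratios and intervals are conditioned on that selection. The fitted footprint change also depends on the prior count. Intervals cover counting error only, since PCR copies are not independent molecules.

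In GENCODE on GRCh37, PSMB9 spans chr6:32811913-32827628 on the plus strand and overlaps PSMB8 and TAP1 on the minus strand, and PSMB10 spans chr16:67968409-67970767 on the minus strand. The RNA-Seq kit is not described as keeping the strand, so reads of PSMB9 and its overlapping neighbours cannot be told apart where they share sequence. TAP1, the peptide transporter gene, starts 488 bases from the start of PSMB9 on the opposite strand. It had 31.9 and 33.4 CPM of mRNA in WT against 27.5 and 28.7 in XRN1-null cells (log2 change -0.22, FDR = 0.033), and so did not show the higher level seen for PSMB9.

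The bases just before the start site are shown for PSME4, a proteasome gene called higher in mRNA, and for the 2 that fell most, PSMB10 and PSMD7. PSMB9 is shown as well, although its difference is only a description for the reason given with its values. Capitals mark matches on either strand to 1 of 3 motifs: TGACNNNGC, the core of the antioxidant response element that NFE2L1 and NFE2L2 bind, TTCNNNGAA, a unit of the heat shock element, and a repeat of GAAA with 2 bases between the copies that interferon regulatory factors bind. Each run is the 250 bases upstream of the start, 5′ to 3′ on the strand of the gene, from RefSeq on GRCh38.p14. PSMB9 lies at chr6:32853942-32854191 (plus), PSMB10 at chr16:67936851-67937100 (minus), PSMD7 at chr16:74296564-74296813 (plus) and PSME4 at chr2:53970994-53971243 (minus).
PSMB9: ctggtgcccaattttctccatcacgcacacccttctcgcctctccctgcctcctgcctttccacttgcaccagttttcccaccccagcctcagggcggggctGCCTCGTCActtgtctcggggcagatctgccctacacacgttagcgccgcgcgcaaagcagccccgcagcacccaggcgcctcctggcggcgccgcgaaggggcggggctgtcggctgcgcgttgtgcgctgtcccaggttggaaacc
PSMB10: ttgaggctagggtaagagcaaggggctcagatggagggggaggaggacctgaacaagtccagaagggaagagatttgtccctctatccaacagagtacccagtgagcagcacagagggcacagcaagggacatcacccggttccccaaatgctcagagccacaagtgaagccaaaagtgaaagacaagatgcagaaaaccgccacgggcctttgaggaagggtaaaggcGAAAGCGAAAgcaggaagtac
PSMD7: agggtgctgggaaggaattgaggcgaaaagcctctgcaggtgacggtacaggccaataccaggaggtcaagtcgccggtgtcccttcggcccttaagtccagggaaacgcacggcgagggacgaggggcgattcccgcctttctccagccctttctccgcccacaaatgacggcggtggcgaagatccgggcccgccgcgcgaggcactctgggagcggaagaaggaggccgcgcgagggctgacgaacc
PSME4: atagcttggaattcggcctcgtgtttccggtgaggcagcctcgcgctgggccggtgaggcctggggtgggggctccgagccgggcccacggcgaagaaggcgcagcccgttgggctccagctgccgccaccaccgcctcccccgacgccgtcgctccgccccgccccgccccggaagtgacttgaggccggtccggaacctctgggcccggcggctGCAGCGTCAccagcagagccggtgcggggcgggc

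The window of PSMB9 holds an antioxidant response core from 148 to 140 bases before the start, and that of PSME4 one from 34 to 26 bases before it. PSMB10 has the GAAA repeat from 21 to 12 bases before its start, and PSMD7 has none of the 3 motifs in this window. RefSeq windows were found for 39 of the 45 genes, 48 windows in all. The antioxidant response core was in 12 of these (25%), against 12% of 11352 windows of table genes, the heat shock unit in 5 (10.4%) against 5.26%, and the GAAA repeat in 5 (10.4%) against 2.22%. The genes with the GAAA repeat were PSMA4, PSMB4, PSMB10, PSME2 and PSMG4. A match is a description of the letters and no evidence of binding.

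Among the activators, PSME4 rose. Its product, PA200, caps the core without ATP or ubiquitin, and PSME4 mRNA was 149 and 150 CPM in WT against 206 and 193 in XRN1-null cells (log2 change 0.41 ± 0.06, FDR = 0.0009). Its footprints were 138 in both WT libraries and 158 in both XRN1-null libraries (log2 change 0.20 ± 0.14, FDR = 0.33). PSME4 has the longest coding sequence of the members, and with the smooth trend with coding length removed its mRNA change was -0.08. This was the only change of sign of a called gene among the settings tried.

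PSME1 and PSME2 form the interferon-inducible PA28 alpha-beta cap. PSME1 mRNA was 47.9 and 51.2 CPM in WT against 59.3 and 62.6 in XRN1-null cells (log2 change 0.30 ± 0.07, FDR = 0.0057), just short of the threshold, and it was called in 8 of the 13 fits tried, DESeq2 and the likelihood ratio test among them. PSME2 differed less, with a log2 change of 0.08 (FDR = 0.34). PSME3, the nuclear PA28 gamma, had 419 and 441 CPM in WT against 366 and 370 in XRN1-null cells (log2 change -0.23, FDR = 0.014). PSMF1, the inhibitor PI31, had a log2 change of -0.12 (FDR = 0.11).

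All 6 assembly chaperones were below 0 in mRNA and in footprints. PSMG1 to PSMG4 build the alpha ring as the pairs PSMG1 with PSMG2 and PSMG3 with PSMG4, while PSMD9 and PSMD10 help to build the 19S base. PSMG1, PSMG4 and PSMD10 fell in mRNA, with log2 changes of -0.41, -0.58 and -0.52. The median change was -0.35 in mRNA and -0.24 in footprints. Of all genes 51.0% were below 0 in mRNA and 50.3% in footprints. The 6 coding lengths ran from 366 nt for PSMG3 to 864 nt for PSMG1, and over all genes of up to 900 nt the median change was -0.33 in mRNA and -0.19 in footprints, with 46.5% called lower in mRNA, so the chaperones were near the genes of their length.

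PSMD10, also called gankyrin, had 153 and 148 CPM of mRNA in WT against 107 and 103 in XRN1-null cells (log2 change -0.52 ± 0.06, FDR = 0.0003). PSMG4 had 18.2 and 16.6 CPM in WT against 11.6 and 11.7 in XRN1-null cells (log2 change -0.58 ± 0.09, FDR = 0.001). Its partner PSMG3 had 77.0 and 72.6 CPM against 62.2 and 60.2 (log2 change -0.29, FDR = 0.0057). Both groups were apart in each of these genes, and in footprints neither partner passed, with FDR values of 0.059 for PSMG4 and 0.089 for PSMG3.

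PSMC3IP, the gene that shares only the name, rose. It had 57.2 and 55.6 CPM of mRNA in WT against 98.6 and 94.8 in XRN1-null cells (log2 change 0.78 ± 0.06). Its footprints were 9.90 and 11.7 CPM in WT against 17.1 and 15.3 in XRN1-null cells (log2 change 0.55 ± 0.22, FDR = 0.11). The groups did not overlap in either assay.

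In footprints 0 of the 45 genes passed at an FDR below 0.005 in edgeR's quasi-likelihood test, where 0.633% of all genes were called higher and 1.14% lower. At an unadjusted p below 0.05 there were 9 of the 44 members other than PSMB9, 5 higher (11.4%) and 4 lower (9.09%), against 16.2% and 16.8% of all genes. DESeq2 called 0 and edgeR's likelihood ratio test 2, PSMB9 higher, with the limit given above, and PSMD7 lower, while that test called 469 of all genes higher and 596 lower. These were also the genes called at an FDR below 0.05, where 7.07% of all genes were higher and 8.38% lower. The median footprint change was -0.04 over the 20S genes, 0.20 over the 19S genes and -0.003 over all genes. Both XRN1-null libraries were above both WT libraries for 10 of the 17 genes of the 19S particle and below them for 4, against 32.1% and 32.3% of all genes.

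Leaving out WT replicate 2 changed the footprint counts most, to 10 members higher and 3 lower, where the calls over all genes also rose, to 12.7% higher and 10.8% lower. WT replicate 1 was the shallowest library, and for the 19S genes the median log2 difference of WT replicate 2 over replicate 1 was 0.18 in Ribo-Seq. Without WT replicate 1 the test called 2 members higher and 2 lower, against 588 and 707 of all 10105 genes, and the counts of called footprint changes thus depended on which WT library was used.

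For TE, 0 of the 45 genes passed at an FDR below 0.005 in edgeR's quasi-likelihood test of the interaction of assay and genotype, where 0.0495% of all genes were called higher and 1.78% lower. At an unadjusted p below 0.05 there were 9 of the 44 members other than PSMB9, all higher (20.5%), against 8.76% of all genes higher and 14.6% lower, while DESeq2 and the likelihood ratio test called 0 at an FDR below 0.005. With the replicate number within each genotype as a block over both assays, PSMA3 passed that threshold (FDR = 0.0044). That fit called 0.544% of all genes higher and 4.30% lower. Its block assumes that equal numbers mean a shared culture in both assays, which the labels do not state. At an FDR below 0.05, PSMA3 was called higher (log2 change 0.50, FDR = 0.037), against 1.02% of all genes higher and 6.46% lower. PSMA3 mRNA had fallen, and its footprints were 370 and 387 CPM in WT against 397 and 384 in XRN1-null cells, with overlapping groups. The TE change was above 0 for all 14 core genes, with a median of 0.23, and for 36 of the 45 members, against 51.0% of all genes. With the smooth trend with coding length removed, 4 of the 14 core genes were below 0 and their median was 0.14.

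Summed over genes, core and cap can be set against each other in each library. The ratio of the summed mRNA CPM of the 14 core genes to that of the 17 genes of the 19S particle was 1.09 and 0.983 in WT against 0.871 and 0.848 in XRN1-null cells. In footprints it was 1.33 and 1.23 in WT against 1.18 and 1.16 in XRN1-null cells. The genotypes did not overlap in either assay, although the means differed by less in footprints (1.28 ± 0.07 against 1.17 ± 0.02, SD, n = 2) than in mRNA (1.03 ± 0.07 against 0.859 ± 0.016). The part of coding length in this ratio was not tested. For the log2 changes of single genes, with the smooth trend with coding length removed, the median was -0.021 over the 20S genes and -0.028 over the 19S genes in mRNA, and 0.098 and 0.19 in footprints.

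**Figure D5:**
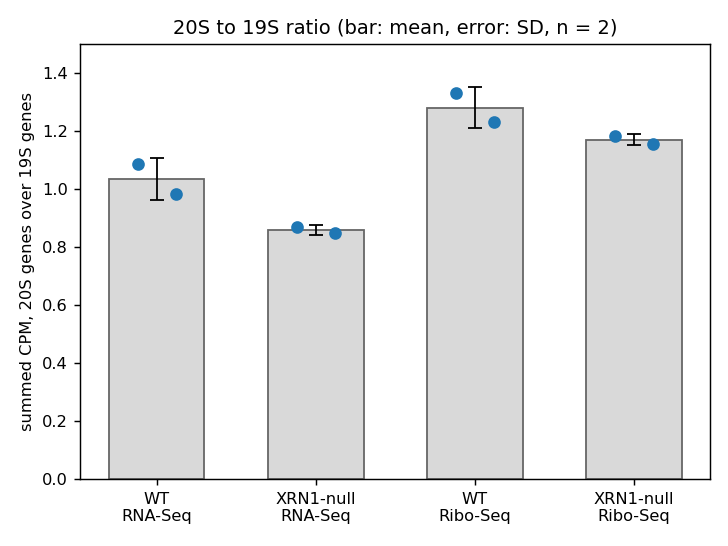
Ratio of summed CPM of the 14 core genes over the 17 genes of the 19S particle (y axis) in each library (points), with the mean as a bar and the SD as error, n = 2 per group. The XRN1-null libraries lie below the WT libraries in both assays, at 0.848 to 0.871 against 0.983 to 1.09 in RNA-Seq.

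The genes around the proteasome were read from a list of its regulators, receptors, assembly factors and ubiquitin sources, of which 33 of 36 were in the table. In mRNA 3 of them were called higher and 5 lower, both below the shares of all genes (22.9% and 23.2%), while in footprints and TE 0 passed at an FDR below 0.005 in edgeR's quasi-likelihood test. At an unadjusted p below 0.05 there were 9 in footprints and 5 in TE, below the 33.0% and 23.3% of all genes. DESeq2 called 0 in either, and the likelihood ratio test called 1 in footprints, against 10.5% of all genes, and 0 in TE. The rises were ZFAND2A, a stress-induced proteasome partner (log2 change 0.80), KIAA0368 or ECPAS, a scaffold that holds core and cap together (0.62), and UBA6, a ubiquitin-activating enzyme (0.56). Among the falls were SHFM1 or SEM1, the smallest lid subunit (-0.66), RPS27A, ubiquitin fused to a ribosomal protein (-0.48), ZFAND5 (-0.42) and POMP, the chaperone of the beta ring (-0.40).

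POMP mRNA was 171 and 162 CPM in WT against 131 and 121 in XRN1-null cells, and its footprints, at 391 and 378 CPM against 370 and 384, overlapped between genotypes. SHFM1 mRNA was 150 and 125 CPM in WT against 90.2 and 84.8 in XRN1-null cells. NFE2L1, the transcription factor that raises proteasome genes when proteasome activity drops, had 224 and 223 CPM in WT against 213 and 209 in XRN1-null cells (log2 change -0.08, FDR = 0.26). ADRM1, a ubiquitin receptor of the cap, had a log2 change of -0.09 (FDR = 0.28).

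A list of 14 genes of antigen presentation and its interferon regulators, many of which are induced by interferon like PSMB9 and PSMB10, had 13 in the table. In mRNA 4 of them were called higher, among them ERAP2, IRF2 and IRF1 with log2 changes of 1.59, 0.81 and 0.71, and 3 lower, among them CALR and HLA-B with -0.51 and -0.30, in a table where 22.9% of all genes were called higher and 23.2% lower. In footprints and TE 0 passed in the quasi-likelihood test, with 6 and 2 genes at an unadjusted p below 0.05, against 33.0% and 23.3% of all genes. DESeq2 called 0 in either, and the likelihood ratio test called 2 in footprints, against 10.5% of all genes, and 0 in TE.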

How the data were processed

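Per the labels and the paper's methods, the authors filtered out ribosomal RNA with Bowtie2, aligned what remained to hg19 with TopHat2 and deposited raw counts per gene for 4 RNA-Seq and 4 Ribo-Seq libraries, with a width per gene, for genes selected above an FPKM of 2 in these same libraries. From the deposited counts and widths, 9017 of the 10105 genes were above 2 in every library. Log2 fold changes, p-values, FDR and TE columns in the same table hold the authors' own comparisons and were not used. Groups and replicate numbers came from the labels.

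edgeR 4.0.16 (R 4.3.3) was run on these counts for all 10105 genes with no filter beyond the authors' selection, with TMM factors within each assay, glmQLFit and glmQLFTest, genotype as the only term, and for TE the interaction of assay and genotype over 8 libraries. P-values were adjusted by Benjamini-Hochberg over all genes, and calls were made at an FDR below 0.005. SE is the log2 fold change over the square root of F, and CPM are per 1 M counts of the TMM-scaled total. The script was tested on simulated data. DESeq2 1.42.0, other scalings, a filter at 10 counts, other thresholds, the replicate block and leaving out libraries were alternatives. Coding lengths (9799 genes) and positions came from GENCODE 44 on GRCh37, promoters from RefSeq, and 10 other motifs were looked at there and are not reported.

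The members, lists and tests were chosen with earlier results of these data known. The rule for named genes took XRN1, the up to 4 largest rises and falls per contrast among called members, PSMB5, PSMB6, PSMB7, PSMB9, PSMB10 and PSMC3IP, up to 3 rises and falls of the regulator list, NFE2L1, POMP, ADRM1 and SEM1. The other genes named with values, among them PSMA3, PSMA7, PSMB4, PSMC4, PSMD8, PSMD14, PSME1, PSME3, PSMG3 and TAP1, and the promoters, ratios and motifs shown, were chosen after their values were seen. A few genes of the lists are not reported here by name. Ribo-Seq libraries are much less deep than RNA-Seq libraries, so footprint changes have larger errors. Some members have annotated pseudogene copies, most of all PSMC1 (13) and PSME2 (6), and how reads shared with them were counted is not given in the sources used here.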

Additional observations from a re-analysis of the deposited data

How the results depend on the processing

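With 2 libraries a group, p-values rest on few degrees of freedom, and footprint depth limits the calls of small changes. In mRNA, 20 members were called lower at an FDR of 0.05 and 24 at 0.1 (34.2% and 37.7% of all genes), where 7 were called higher (35.5%), and leaving out 1 library in turn gave 1 to 10 higher and 2 to 25 lower, while over all genes it gave 1632 to 3410 higher and 1097 to 3389 lower. In footprints 1 was called higher and 1 lower by the likelihood ratio test, with the coding length trend removed and at an FDR of 0.05, and 3 each way at 0.1 (12.3% and 13.0% of all genes), while leaving out 1 library gave 0 to 10 higher and 0 to 3 lower, and over all genes 71 to 1282 and 72 to 1087. In TE 1 member was called higher at 0.05 and 4 at 0.1 (1.02% and 2.86% of all genes). With library totals in place of TMM the median mRNA change was -0.11 over the 44 proteasome genes and -0.19 over the 20S genes. With the coding length trend removed, a fit added after the data were seen, 3 members were called lower in mRNA (17.1% of all genes), the medians were -0.012 and -0.021 in mRNA and 0.051 and 0.098 in footprints, the 20S median in TE was 0.14, and PSME4 mRNA turned to -0.080. With the GC trend removed, also added afterwards, the 20S footprint median was -0.080. Leaving out 1 library gave medians of -0.036 to 0.053 for footprints and 0.11 to 0.21 for TE of the 44 genes, and 0.22 to 0.27 for TE of the 20S genes. Per kb of the deposited width, in place of coding length, the SD of log2 levels of the 20S genes was 0.86 in WT mRNA, 0.91 in WT footprints, 0.84 in XRN1-null mRNA and 0.96 in XRN1-null footprints, against 0.46, 0.50, 0.43 and 0.53 per coding kb, and for the 19S genes 0.65, 0.58, 0.64 and 0.54 against 0.45, 0.39, 0.41 and 0.38. Leaving out 1 library gave 0.90 to 0.91 for the width-based WT footprints of the 20S genes and 0.65 to 0.66 for the WT mRNA of the 19S genes. With a replicate block, 4 members were called higher and 15 lower in mRNA (28.3% and 27.8% of all genes), and 1 (PSMB9) and 2 in footprints (616 and 665 of all genes). With the replicate number within each genotype as a block over both assays, 1 was called higher in TE (PSMA3, against 0.544% of all genes). The labels share only a number between genotypes and between assays, and name no shared culture. The differences of replicate 2 over 1 correlated between genotypes at 0.19 in RNA-Seq and 0.08 in Ribo-Seq. Other scalings, the count filter and DESeq2 left the counts over all members within 1.5 times of the values given, while with library totals 1 gene of the 19S particle was called lower in place of 2, PSMC4 losing its call. A lone library left in a group was taken to vary like the other group, and with at least 10 counts in every library PSMB9 footprints could not be fitted. The causes of these differences were not tested.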
